A study of Mus musculus with 12 samples.

Results

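The miR-99/100 and miR-125 families were followed through 5 mature miRNAs: mmu-miR-99a, mmu-miR-99b and mmu-miR-100 of the first family, and mmu-miR-125a-5p and mmu-miR-125b-5p of the second. The species prefix is left off below. They were picked by name, as the miRNAs that share polycistrons with let-7, out of 650 miRNAs on the array, 611 of them mouse. The choice used measured values, because the contrast between miR-99a and its paralogues had already been seen on these arrays. For the 5 miRNAs the differences below are therefore given as descriptions, with no p-value. All 5 were among the 176 mouse miRNAs that entered the test, and 4 were detected on all 12 arrays.

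The cells were mouse embryonic fibroblasts on a C57BL/6 background, either ATF6bKO, lacking the endoplasmic reticulum stress mediator ATF6b, or WT. Each genotype was measured untreated and after 12 h or 24 h in 2 ug/mL tunicamycin, which blocks N-linked glycosylation and so causes endoplasmic reticulum stress. This gives 6 groups of 2 one-colour Agilent arrays, and the design describes a pair of independent experiments per time. The labels do not say how many embryos or lines stand behind a genotype, and the arrays hold no probe for ATF6b mRNA, which leaves the genotypes unchecked here.

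Both families are old partners of let-7. In vertebrate genomes a miR-99 or miR-100 gene, a let-7 gene and a miR-125 gene lie next to each other in several copies, and miR-125 is the counterpart of the worm developmental timing miRNA lin-4. A miRNA guides the silencing complex to messenger RNAs mainly through its seed, bases 2 to 8 from the 5′ end. miRNAs with the same seed can thus share targets, while a neighbour on the same transcript can have quite different ones. In human cells the miR-99/100 family is known to act on mTOR.

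The mature sequences show which miRNAs share a seed and how little separates miR-99a from miR-100. They are from RefSeq, 5′ to 3′, with the seed in capitals.
miR-99a: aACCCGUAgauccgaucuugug
miR-99b: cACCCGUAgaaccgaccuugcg
miR-100: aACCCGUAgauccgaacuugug
miR-125a-5p: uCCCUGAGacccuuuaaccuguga
miR-125b-5p: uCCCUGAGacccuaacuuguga

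Within the miR-99/100 family, miR-99a and miR-100 differ at 1 of 22 bases, U16A (miR-99a base, position from the 5′ end, miR-100 base). miR-99a and miR-99b differ at 4 of 22: A1C, U11A, U16C and U21C. miR-125a-5p (24 bases) and miR-125b-5p (22 bases) share their first 13 bases. Among the 374 array miRNAs whose name matched a RefSeq sequence, the other miRNA with one of these seeds was miR-351, which has the miR-125 seed and was detected on 0 of 12 arrays.

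The 5 miRNAs come from 3 loci, given here on GRCm38.p6, all on the plus strand. Mature miR-99a lies at chr16:77598940-77598961, within a cluster of 47.4 kb in which Mirlet7c-1 follows after 0.657 kb and Mir125b-2 after a further 46.5 kb. This cluster starts 40.5 kb past the annotated end of the long non-coding RNA gene Mir99ahg. Mature miR-100 lies at chr9:41531437-41531458 in a cluster of 50.6 kb with Mirlet7a-2 and Mir125b-1, inside the span of the non-coding gene Mir100hg. Mature miR-99b, at chr17:17830194-17830215, and miR-125a-5p, at chr17:17830817-17830840, flank Mirlet7e in a cluster of 0.692 kb inside the span of the protein-coding gene Spaca6. Mature miR-125b-5p is the same sequence from chromosome 16 (77646279 to 77646300) and chromosome 9 (41581940 to 41581961), so the array reads the sum of both genes.

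Signal is given as the summed background-subtracted signal of the probes of a miRNA, divided by the 75th percentile of that array, in log2 unless a percent is stated. Values under 0.0191 of the percentile, a log2 of -5.71, were set to that floor. A miRNA is described as called where limma gave an adjusted p below 0.05 over the 176 miRNAs. Levels of different miRNAs depend on their probes and are not set against each other. Only the way a ratio between miRNAs on one array differs between groups is read.

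The 75th percentile signal ran from 208 to 623 over the arrays. It was lowest on the second replicate of KO at 24 h (208), KO at 12 h (246) and WT at 24 h (257). All untreated arrays lay on 1 slide and all tunicamycin arrays on the other, and KO and WT arrays lay in different rows of each slide. Slide and treatment, and row and genotype, cannot be told apart. Of 15 fibroblast marker miRNAs on the array, 13 to 14 were detected on KO arrays and 11 to 14 on WT arrays. Of 7 epithelial markers, 3 or 4 were detected on each of the 4 tunicamycin-treated KO arrays (miR-200b, miR-200c and miR-141, with miR-200a on 2), where the list made up 1.93% to 2.76% of the mouse miRNA signal. It made up at most 0.0167% on untreated KO arrays and at most 0.00819% on WT arrays, with 0 of 7 detected on either. The part of these other-cell markers in the results on tunicamycin-treated KO cells below was not tested. None of the 7 blood and 3 endothelial and liver markers was detected on any array. Of 5 neural, 5 muscle and 9 pluripotent markers at most 1 per list was detected on an array, in both genotypes. These lists made up at most 0.0324%, 0.0642% and 0.268% of the signal on KO arrays, against 0.0638%, 0.0734% and 0.160% on WT arrays.

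miR-99a was higher in KO than in WT fibroblasts in every condition, and none of the other 4 miRNAs was called in that comparison. Its signal in untreated cells was 16.2% and 15.4% of the 75th percentile on the KO arrays, against 6.01% and 5.18% on the WT arrays. After 12 h of tunicamycin it was 18.4% and 19.6% on KO arrays, against 1.71% and 1.60% on WT arrays. After 24 h it was 21.9% and 19.6% on KO arrays, against 1.71% and 0.805% on WT arrays. The lowest KO array was above the highest WT array throughout. Counting such separation, 3, 3 and 2 of the 5 miRNAs had no overlap between genotypes in untreated cells, at 12 h and at 24 h, against 47.2%, 69.3% and 59.1% of the 176 miRNAs. In cells measured in bulk, fewer cells with a miRNA and less of it per cell cannot be told apart.

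On the log2 scale the untreated difference was 1.50 ± 0.12 (SE, n = 2 arrays a group), a 2.83-fold higher signal in KO, in cells where the epithelial markers were not detected. All 4 tunicamycin-treated WT arrays were at the floor, and the array software detected miR-99a on 1 of the 2 at each time. The treated differences of 3.31 ± 0.12 at 12 h and 3.44 ± 0.12 at 24 h are thus set by the floor. Both treated WT groups enter the shared spread with an SD of 0. That lowers the error of every miR-99a difference, in untreated cells and within KO as well. A second estimate put each WT array at its lowest detected signal, or at its miR-99a signal if that was higher. On it miR-99a was 7.96-fold higher in KO at 12 h and 7.56-fold higher at 24 h. These folds hold for this scaling only, and with a doubled floor the log2 differences were 2.31 and 2.44.

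**Figure D1:**
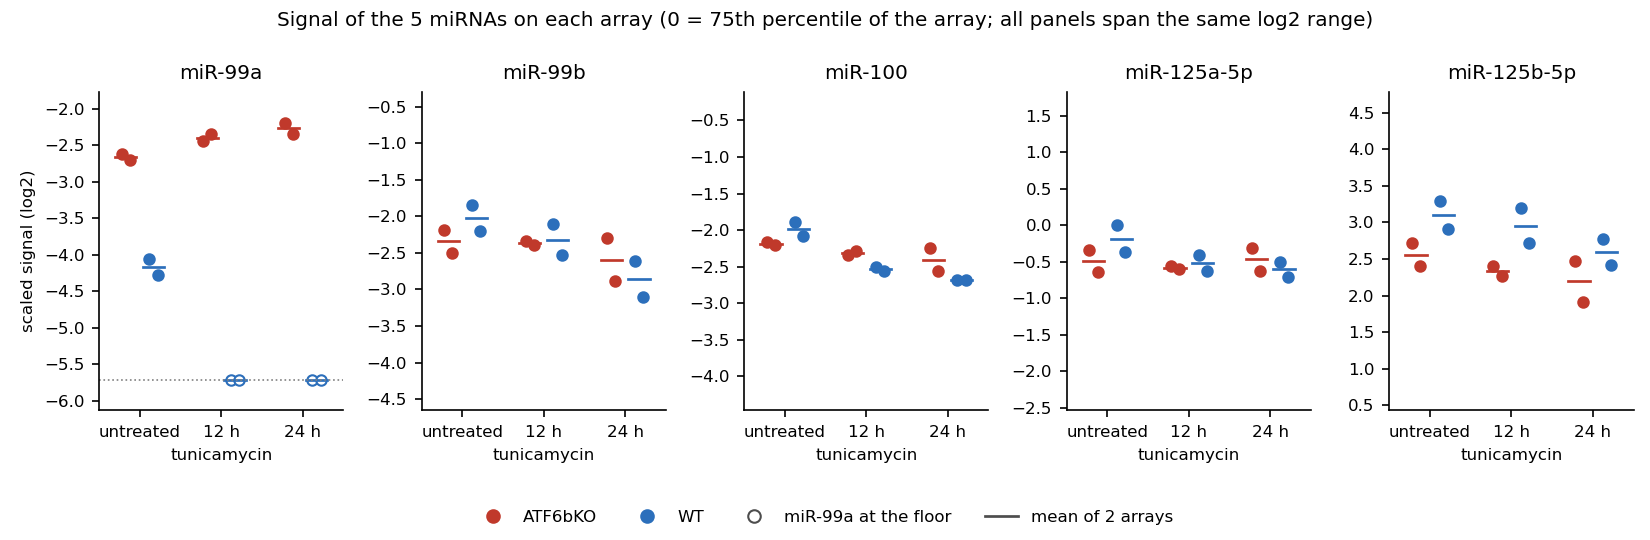
Scaled log2 signal (y axis) of each of the 5 miRNAs on the 12 arrays, with untreated, 12 h and 24 h tunicamycin on the x axis, ATF6bKO left of WT at each time; points are arrays, bars are means of 2, and the dotted line is the floor at -5.71. The KO arrays of miR-99a sit between -2.70 and -2.19, and those of WT at -4.06 and -4.27 untreated and at the floor with tunicamycin. In the other 4 panels the genotype means differ, KO minus WT, by -0.62 (miR-125b-5p at 12 h) to 0.28 (miR-100 at 24 h).

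The call for miR-99a made it 1 of 5 members called in each of the 3 genotype comparisons. The background was 11.4% of the 176 miRNAs in untreated cells, 38.1% at 12 h and 34.7% at 24 h, and since miR-99a was chosen for this contrast nothing is read from these counts. Under 10 other processing settings its difference kept its sign in all 3 conditions. It was called in 7 of 10 in untreated cells and in 8 of 10 at each treated time. Several settings left the value as it was. The untreated value stayed at 1.50 without the detection filter, with a changed floor and with the replicate number or scan run as a block. Quantile normalization and the total gene signal moved it and kept the call. Scaling over all mouse miRNAs, normexp and the deposited values lost it. The treated values were unchanged without the filter and with either block. With a normexp background correction, which adds 50 to each probe, the differences shrank to 0.37, 1.02 and 0.92 and none was called.

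The individual probes gave the same picture before any scaling. The brighter of the 2 miR-99a probes read 82.5 and 74.8 in untreated KO cells, against 27.7 and 23.3 in untreated WT cells. At 12 h it read 69.2 and 39.5 in KO, against 10.9 and 7.34 in WT. At 24 h it read 75.2 and 33.5 in KO, against 9.17 and 3.48 in WT. The second value of each treated KO pair is from a dim array, and both values still exceed every WT reading at that time.

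The dimmer probe read 18.4 and 17.5 in untreated KO cells, against 6.50 and 4.64 in untreated WT cells. In tunicamycin-treated cells it read 7.20 to 15.0 on the 4 KO arrays, against -1.42 to 0.785 on the 4 WT arrays, where it did not differ from 0 beyond the spread of its spots. In untreated cells the 2 probes gave log2 differences between genotypes of 1.49 and 1.57.

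**Figure D2:**
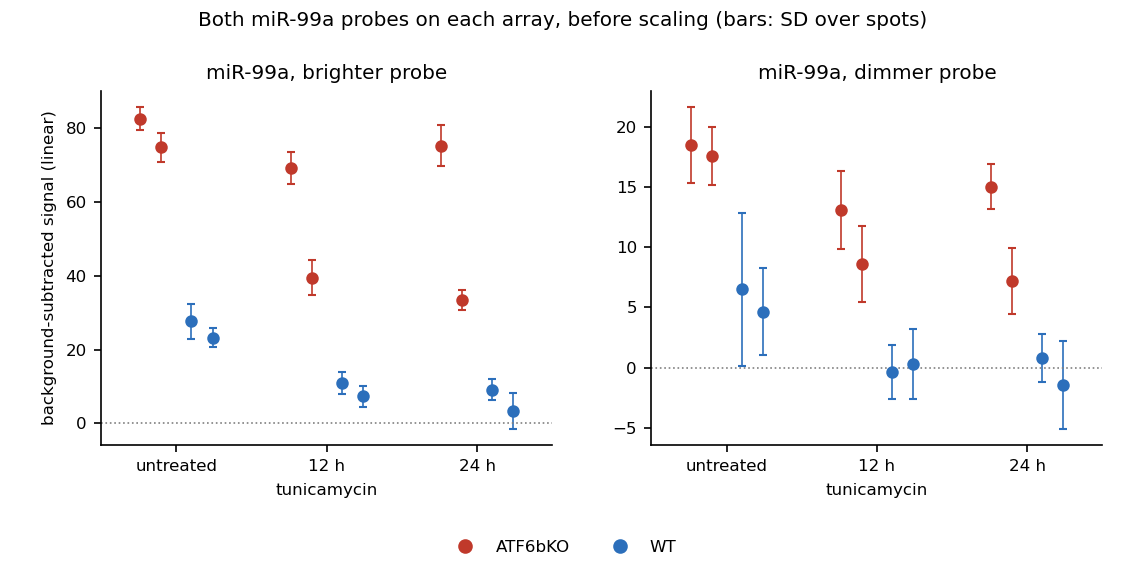
Background-subtracted signal (y axis, linear, before scaling) of the brighter and the dimmer miR-99a probe on each array, by condition, ATF6bKO left of WT; error bars are the SD over the spots of the probe on that array. On the tunicamycin arrays the dimmer probe reads 7.20 or more in KO and lies around 0 in WT.

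miR-99b and miR-100, with the same seed, did not share the miR-99a difference between genotypes. miR-100 read -2.17 and -2.21 in untreated KO cells, against -1.89 and -2.08 in untreated WT cells, a log2 difference of -0.20 ± 0.13. At 12 h it read -2.33 and -2.28 in KO, against -2.50 and -2.57 in WT (0.23 ± 0.13). At 24 h it read -2.25 and -2.56 in KO, against -2.69 and -2.68 in WT (0.28 ± 0.13). The arrays of the genotypes did not overlap at any of these times, but the order was KO below WT when untreated and KO above WT with tunicamycin, and no difference was called. The order with tunicamycin turned round in some of the 11 other settings, where the difference ran from -0.51 to 0.34 at 12 h and from -0.20 to 0.36 at 24 h. Without KO 24 h replicate 2 the 24 h difference was 0.43 and called.

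miR-99b read -2.18 and -2.49 in untreated KO cells, against -1.84 and -2.20 in WT cells. At 12 h it read -2.34 and -2.39 in KO, against -2.11 and -2.53 in WT, and at 24 h -2.30 and -2.89 in KO, against -2.61 and -3.11 in WT. The genotypes overlapped in all 3 conditions. The log2 differences, KO minus WT, were -0.32, -0.05 and 0.26, each ± 0.27, and none was called.

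miR-125b-5p, partly encoded downstream of miR-99a, stood on the other side: lower in KO. It read 2.72 and 2.40 in untreated KO cells, against 3.30 and 2.91 in untreated WT cells. At 12 h it read 2.40 and 2.27 in KO, against 3.20 and 2.71 in WT. At 24 h it read 2.48 and 1.92 in KO, against 2.78 and 2.41 in WT, the condition in which the genotypes overlapped.

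The log2 differences of miR-125b-5p were -0.55, -0.62 and -0.40, each ± 0.27, and none was called. They were below 0 under all 11 other settings, from -0.70 to -0.36, from -1.35 to -0.61 and from -0.79 to -0.36. Within a slide, replicates of the same number were scanned in the same run and deviated together. With the replicate number as a block the differences were the same, the error fell to ± 0.12, and miR-125b-5p was called lower in KO in all 3 conditions. Within runs, KO minus WT was -0.58 and -0.51 in untreated cells, -0.80 and -0.45 at 12 h and -0.30 and -0.49 at 24 h. How many of the 176 miRNAs kept 1 direction over all such pairs was not counted, so nothing is read from that. With the block 2 of 5 members were called in each condition, against 21% of the 176 miRNAs untreated, 44.3% at 12 h and 47.2% at 24 h.

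miR-125a-5p, which shares the miR-125 seed, read -0.34 and -0.64 in untreated KO cells, against 0.00 and -0.37 in WT cells. At 12 h it read -0.56 and -0.60 in KO, against -0.41 and -0.62 in WT, and at 24 h -0.31 and -0.63 in KO, against -0.50 and -0.71 in WT. The genotypes overlapped in each condition. Its differences were -0.31, -0.06 and 0.14, each ± 0.19, and it was not called with or without the block.

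Dividing an array by 1 number leaves the ratios between its miRNAs as they were, save at the floor. The log2 ratio of miR-99a to miR-100 was -0.46 and -0.49 on untreated KO arrays, against -2.17 and -2.19 on untreated WT arrays. It was -0.10 and -0.07 on KO arrays at 12 h, against -3.21 and -3.14 on WT arrays. It was 0.06 and 0.21 on KO arrays at 24 h, against -3.02 on both WT arrays. The ratio was thus higher in KO by 1.70 in untreated cells, by 3.09 at 12 h and by 3.15 at 24 h, the last 2 with miR-99a at the floor in WT.

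Against miR-99b the ratio was higher in KO by 1.82, 3.36 and 3.17 in the same order of conditions. Against miR-125b-5p, from the far end of the same cluster and from chromosome 9, it was higher by 2.05, 3.93 and 3.83. Against let-7c, whose gene Mirlet7c-1 is the nearest neighbour of Mir99a, it was higher by 1.49, 3.62 and 3.57. KO and WT arrays did not overlap for any of these ratios in any condition, with miR-99a at the floor in treated WT. Such separation was common among single miRNAs, at 47.2%, 69.3% and 59.1% of the 176. It was not counted for other pairs of miRNAs.

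The chromosome 9 ratio of miR-100 to miR-125b-5p was higher in KO by 0.34 untreated, 0.85 at 12 h and 0.68 at 24 h. Its arrays did not overlap between genotypes in any condition, and miR-125b-5p is also read from chromosome 16. In the tight cluster on chromosome 17 the differences were smaller. The log2 ratio of miR-99b to miR-125a-5p was -1.84 and -1.85 on untreated KO arrays, against -1.84 and -1.83 on untreated WT arrays, a difference of -0.01. It differed between genotypes by 0.02 at 12 h and by 0.13 at 24 h, with overlapping arrays each time. Across the 12 arrays the levels of these 2 miRNAs correlated at r = 0.83, while miR-99a correlated with miR-125b-5p at -0.55, with miR-100 at 0.49, with miR-99b at 0.15 and with miR-125a-5p at 0.06. These are descriptions over arrays that share slides, runs and scaling.

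Within the miR-125 family the log2 ratio of miR-125b-5p to miR-125a-5p was lower in KO. It was 3.06 and 3.04 on untreated KO arrays, against 3.30 and 3.28 on untreated WT arrays. It was 2.96 and 2.87 on KO arrays at 12 h, against 3.61 and 3.34 on WT arrays, and 2.79 and 2.54 on KO arrays at 24 h, against 3.28 and 3.12 on WT arrays. The differences were -0.24, -0.56 and -0.53, and the genotypes did not overlap in any condition, a separation not counted for other pairs of miRNAs. The bright and dim probes of miR-125b-5p gave log2 differences between genotypes within 0.05 of each other in each condition.

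**Figure D3:**
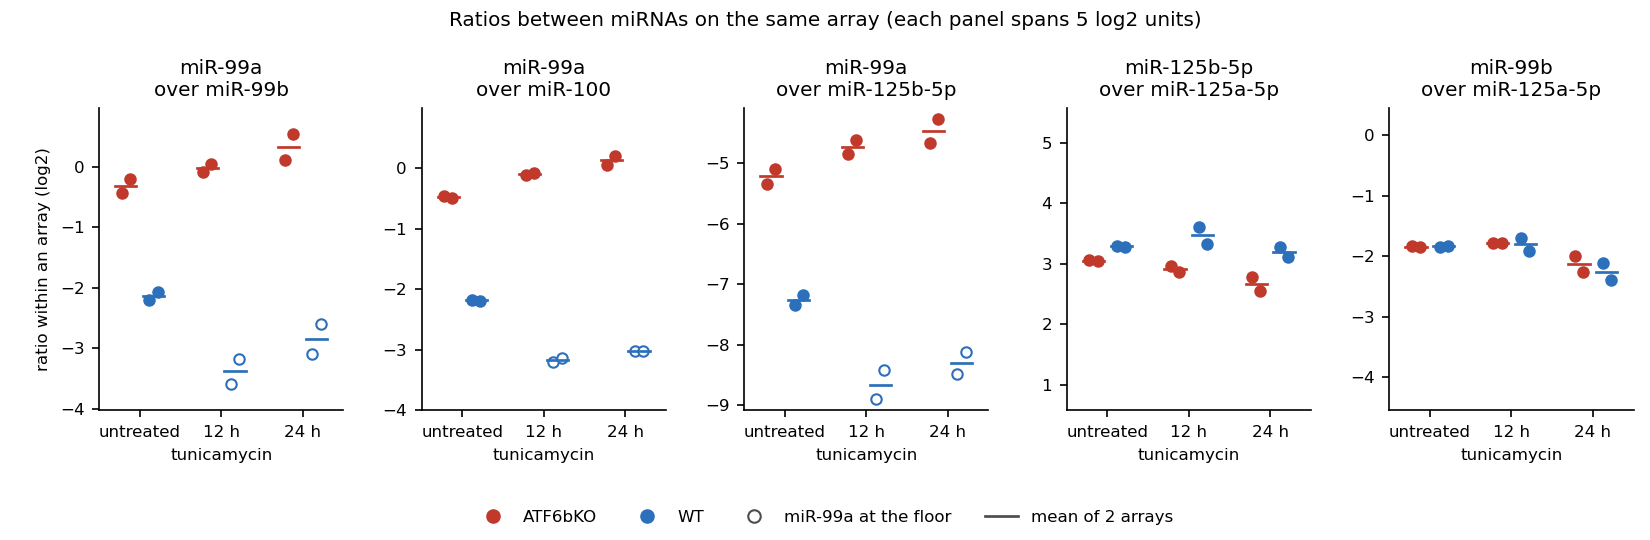
Log2 ratio between pairs of miRNAs on the same array (y axis) by condition, ATF6bKO left of WT; points are arrays, bars are means of 2, and open points are arrays with miR-99a at the floor. The heights of different panels depend on the probes, so only the step between genotypes is read: 1.82, 1.70 and 2.05 untreated in the 3 miR-99a panels, -0.24 for miR-125b-5p over miR-125a-5p and -0.01 for miR-99b over miR-125a-5p.

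With tunicamycin miR-99a fell in WT cells and was slightly above its untreated level in KO cells, where quantile normalization and the deposited values put it below at both times and the total gene signal did at 24 h. In WT cells the log2 difference from untreated was -1.54 ± 0.12 at 12 h and at 24 h, with the treated arrays at the floor. It was called at both times and in 7 of 10 other settings at each. Scaling over all mouse miRNAs, normexp and the deposited values lost both calls. With each treated WT array at its lowest detected signal, or its miR-99a signal if higher, the fall was 2.34-fold and 2.04-fold. With a doubled floor the log2 difference was -0.54 at both times, and with normexp it was -0.20 and -0.04. In KO cells miR-99a was 0.27 ± 0.12 above untreated at 12 h, not called, and 0.39 ± 0.12 above at 24 h, called. The KO call at 24 h was lost in 10 of 12 fits that left out an array, all but those without an untreated WT array, at values of 0.31 to 0.47. It was also lost in 7 of 10 other settings, where the value ran from -0.81 to 0.52. With a halved floor the call was lost though the value stayed at 0.39.

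The difference between the responses, KO minus WT, was 1.81 ± 0.17 at 12 h and 1.93 ± 0.17 at 24 h, and both were called. Each was called in 5 of 10 other settings, where it ran from 0.14 to 2.02 at 12 h and from 0.37 to 2.52 at 24 h. The calls held only without the detection filter, with a changed floor and with the blocks. They were lost with quantile normalization, scaling over all mouse miRNAs, normexp, the total gene signal and the deposited values. Among the 5 miRNAs miR-99a was the one call at each time, against 24.4% of the 176 miRNAs at 12 h and 20.5% at 24 h.

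miR-100 and miR-99b also fell with tunicamycin in WT cells. miR-100 was lower by -0.55 ± 0.13 at 12 h and by -0.70 ± 0.13 at 24 h, and miR-99b by -0.30 ± 0.27 and -0.84 ± 0.27. Both miR-100 differences and the miR-99b difference at 24 h were called. In KO cells miR-100 differed by -0.12 and -0.22 and miR-99b by -0.03 and -0.26, not called. The differences between these responses, 0.43 and 0.48 for miR-100 and 0.27 and 0.58 for miR-99b, were not called, so a different response of the genotypes was not shown for either. Without KO 24 h replicate 2 the 24 h response difference of miR-100 was 0.64 and called.

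The WT calls at 24 h did not hold on the total gene signal of the array software, where both miRNAs were above untreated. On the second WT array at 24 h that signal was 8.77 times the probe sum for miR-99b and 8.72 times for miR-100, against medians over arrays of 0.674 and 0.669. Without WT untreated replicate 1 the 12 h difference of miR-100 was -0.45 and without WT 12 h replicate 2 it was -0.52, neither called. The 24 h call of miR-99b was lost without either KO 12 h array, without either untreated WT array and without WT 24 h replicate 2. Over all fits that left out an array that difference ran from -1.09 to -0.59.

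The miR-125 miRNAs were not called for tunicamycin in either genotype. In WT cells miR-125a-5p differed by -0.33 and -0.42, each ± 0.19, and miR-125b-5p by -0.15 and -0.51, each ± 0.27. In KO cells the differences were -0.09 and 0.03 for miR-125a-5p and -0.22 and -0.36 for miR-125b-5p. In WT cells 2 of 5 members were called at 12 h and 3 of 5 at 24 h, against 38.1% and 43.2% of the 176 miRNAs. In KO cells limma called 0 of 5 at 12 h, with 0 also at an unadjusted p below 0.05, and 1 of 5 at 24 h, against 25.6% and 30.7%. With the replicate block it was 3 and 5 in WT, against 50.6% and 54.5%, and 0 and 2 in KO, against 33% and 41.5%. The calls added were miR-125a-5p in WT at both times, miR-125b-5p in WT at 24 h and miR-125b-5p in KO at 24 h. The replicate block gives both slides 1 shared shift, while deviations of the same number correlated at -0.382 to -0.0533 between slides. With the scan run as a block miR-125b-5p in KO at 24 h was not called.

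The slides differed in how the 2 probes of a miRNA compared. The dimmer probe of miR-125b-5p read a median of 6.34% of the brighter on the tunicamycin slide, against 9.99% on the untreated slide. The median was lower on the tunicamycin slide for each of the 4 miRNAs detected on all 12 arrays, at 16.8% against 27.5% for miR-125a-5p, 30.4% against 38.3% for miR-99b and 35.4% against 40.9% for miR-100. For miR-99a, whose dimmer probe lay around 0 on the treated WT arrays, the ratio was 18.9% to 21.8% on the 4 treated KO arrays, against 22.3% and 23.4% on the untreated KO arrays. At 24 h in KO the brighter and the dimmer probe of miR-125a-5p differed from untreated by 0.19 and -0.83. Those of miR-125b-5p differed by -0.31 and -1.08. In WT at 24 h the values were -0.26 and -1.25 for miR-125a-5p and -0.46 and -1.17 for miR-125b-5p. The part of this shift between slides in the tunicamycin differences was not tested.

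Between 24 h and 12 h of tunicamycin 0 of 5 members were called by limma in either genotype, against 0.568% of the 176 miRNAs in KO and 1.14% in WT. With an unadjusted p below 0.05 the count was also 0 in both. The ranking of groups by mean level follows from these values. For miR-99a it ran from KO at 24 h, KO at 12 h and untreated KO to untreated WT and then treated WT, and KO at 24 h and 12 h overlapped. For miR-99b, miR-125a-5p and miR-125b-5p untreated WT was highest, and every neighbour in the ranking overlapped with the next. For miR-100 untreated WT was also highest and WT at 24 h lowest.

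**Figure D4:**
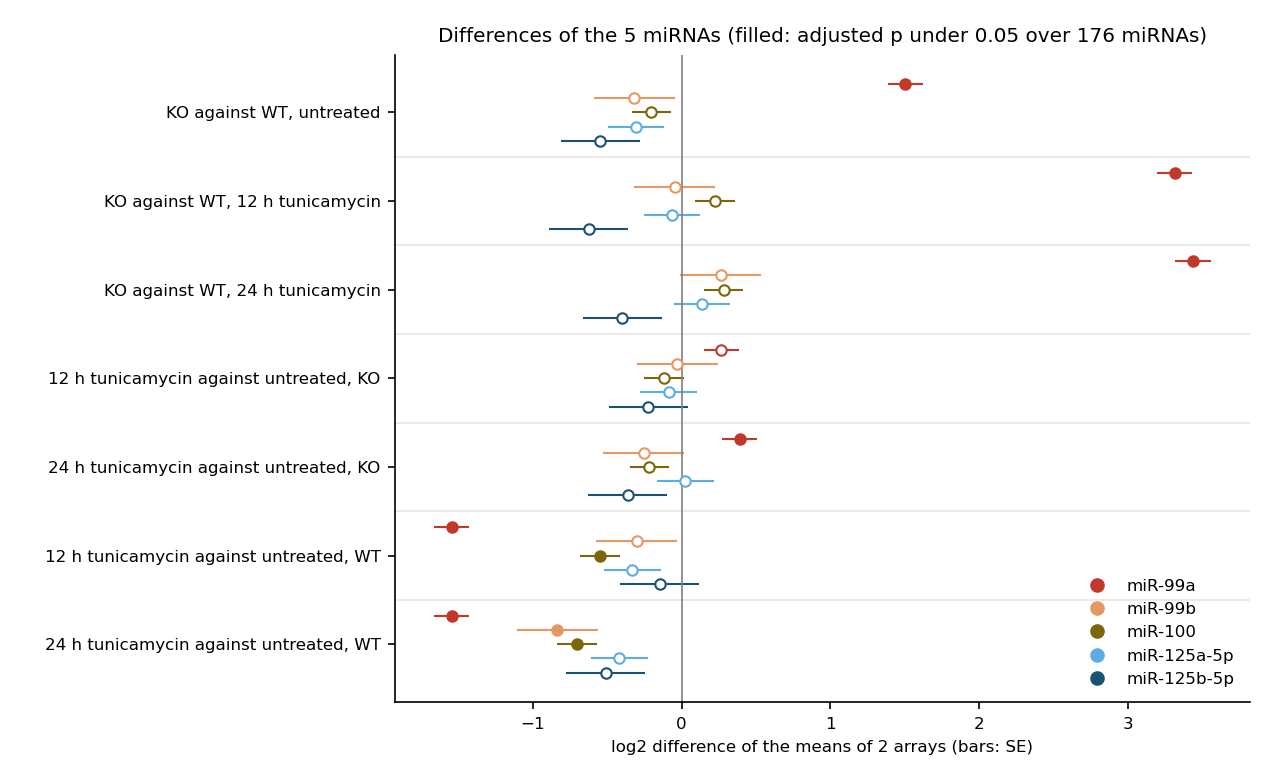
Log2 difference (x axis) of the 5 miRNAs in 7 comparisons, with ATF6bKO against WT in the upper 3 blocks and tunicamycin against untreated below; points are differences of means of 2 arrays, bars are SE, and filled points are called. miR-99a stands at 1.50, 3.31 and 3.44 between genotypes, the last 2 set by the floor, while the other 4 miRNAs lie between -0.62 and 0.28.

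The let-7 partners in the 3 clusters did not follow miR-99a. They and miR-10a below were listed with earlier results of these arrays known, so their p-values are no independent evidence. let-7c, whose family represses growth and cell cycle genes, read -0.04 and 0.10 in untreated KO cells, against -0.03 and 0.06 in WT cells. At 12 h it read 0.20 and 0.19 in KO, against 0.63 and 0.38 in WT, and at 24 h 0.40 and 0.44 in KO, against 0.45 and 0.67 in WT. The difference between genotypes was largest at 12 h, -0.31 ± 0.13 (limma, Benjamini-Hochberg adjusted p = 0.107). Mature let-7c also comes from a second gene and let-7a from others, so these levels are not those of 1 locus.

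let-7c rose with tunicamycin in WT cells, where miR-99a fell: by 0.49 ± 0.13 at 12 h (limma adjusted p = 0.0221) and by 0.55 ± 0.13 at 24 h (adjusted p = 0.0121). In KO cells its differences were 0.17 (limma adjusted p = 0.394) and 0.40 (adjusted p = 0.0549). let-7a rose in KO cells by 0.55 ± 0.14 (limma adjusted p = 0.0187) and 0.64 ± 0.14 (adjusted p = 0.00894). let-7e rose in KO cells at 24 h by 0.72 ± 0.20 (limma adjusted p = 0.0333). In WT cells let-7a differed by 0.23 and 0.26 and let-7e by -0.06 and 0.28, not called. The response differences at 12 h and 24 h, KO minus WT, were 0.32 and 0.38 for let-7a and -0.32 and -0.15 for let-7c. For let-7e they were 0.46 and 0.43. None was called, so a different response of the genotypes was not shown for any of these let-7 partners. Of these 3, 0 were called by limma between genotypes in any condition, and 0, 1 and 1 had an unadjusted p below 0.05 in untreated cells, at 12 h and at 24 h. The called share of the 176 miRNAs was 11.4%, 38.1% and 34.7% in the same order. Without any scaling, in the table of log2 values that the authors deposited, let-7a in KO was below untreated at both times and let-7e was at 24 h. The rises of let-7c in WT were called in 6 of 11 other settings at each time, that of let-7e in 5 of 11, and those of let-7a in 5 of 11 at 12 h and 6 of 11 at 24 h. With the scan run as a block let-7a in KO at 12 h was 0.52 and not called.

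Single arrays also decided these calls. For let-7a in KO the 12 h call was lost without any 1 of the 4 arrays compared, at 0.49 to 0.60. Its 24 h call, and that of let-7e, was lost without KO untreated replicate 1 or KO 24 h replicate 2, where the lowest values were 0.59 and 0.55. For let-7c in WT both calls were lost without WT untreated replicate 1, the 12 h call without WT 12 h replicate 1 (0.37) and the 24 h call without WT 24 h replicate 2 (0.44).

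Of all 9 let-7 miRNAs tested, miR-98 included, 5 rose in KO cells at 12 h and 7 at 24 h, and 3 and 4 rose in WT cells. Without a block, 21.6% and 25.6% of the 176 miRNAs rose in KO and 14.2% and 13.6% in WT. With the scan run as a block the let-7 counts were 4 and 6 in KO and 2 and 2 in WT. The share of the 176 miRNAs was not counted with that block, so its counts have no background here. By limma 0 of the 9 were lower, also at an unadjusted p below 0.05. Their median log2 difference was 0.55 and 0.69 in KO, against 0.25 and 0.15 over all 176 miRNAs. In WT it was 0.23 and 0.28, against -0.05 and -0.03. For the response difference, KO minus WT, limma called 2 of 9 at 12 h and 0 at 24 h, against 24.4% and 20.5% of the 176 miRNAs. Between genotypes limma called 0 of 9 in untreated cells, with 0 at an unadjusted p below 0.05, 2 higher at 12 h (let-7g and miR-98) and 1 at 24 h (miR-98). Of the 176 miRNAs, 11.4%, 38.1% and 34.7% were called in these comparisons, in either direction. The 24 h call of miR-98 was kept in 3 of 12 fits that left out an array, at 0.42 to 0.82 over all 12, and in 5 of 11 other settings. Its 12 h call was lost without KO 12 h replicate 2, at 0.69. These sets were drawn up with earlier results of these arrays known.

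miR-10a, of the wider miR-10/99/100 superfamily and encoded in a Hox cluster, was lower in untreated KO cells, -2.65 and -2.83, against -1.99 and -2.13 in untreated WT cells (-0.68 ± 0.13, limma adjusted p = 0.0144). This difference was called in 6 of 11 other settings and was lost without KO untreated replicate 2 (-0.59) or WT untreated replicate 1. It rose with tunicamycin in KO cells by 1.20 at 12 h (limma adjusted p = 0.000286) and by 1.02 at 24 h (adjusted p = 0.000758), and its WT differences of 0.17 and 0.26 were not called. The KO calls were kept in 8 and 7 of 11 other settings and in all 12 fits that left out an array. miR-10b was detected on 2 arrays and did not enter the test. Of 15 opposite strands looked for, 6 were on the array, 0 entered the test and 4 were detected on no array. miR-99b* was detected on 1 array and miR-125a-3p on 4, and the opposite strand of miR-99a was not measured.

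The miRNAs whose levels over the 12 arrays were most like those of miR-99a were miR-155 (Pearson r = 0.97), miR-23b (0.95), miR-152 (0.95), miR-22 (0.94) and miR-337-3p (0.93). The treated WT arrays of miR-99a enter r at the floor. Because these miRNAs were picked by that r, the direction of their genotype differences is no separate result. In untreated cells the differences, KO minus WT, were 0.83 ± 0.11, 0.30 ± 0.19, 0.68 ± 0.28, 0.17 ± 0.17 and 0.73 ± 0.25. At 12 h they were 1.37, 2.20, 1.78, 1.02 and 1.25, with the same errors. The miR-99a value of 3.31 is set by the floor and was 2.31 with the floor doubled, so sizes are not ranked. miR-23b fell with tunicamycin in WT by -1.79 at 12 h and -1.72 at 24 h, against -1.54 for miR-99a. Its response difference, KO minus WT, was 1.90 and 1.93, against 1.81 and 1.93 for miR-99a. miR-152, for example, read -2.77 and -2.76 in KO at 12 h, against -4.71 and -4.39 in WT. miR-155 read -1.53 and -1.46 in KO at 12 h, against -2.77 and -2.94 in WT.

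For the other members the closest miRNAs were miR-129-3p (r = 0.96), miR-365 (0.90) and miR-652 (0.89) for miR-99b, and miR-409-5p (0.94), miR-431 (0.93) and miR-433 (0.92) for miR-100. For miR-125a-5p they were miR-345-5p (0.85), miR-129-3p (0.83) and miR-222 (0.79), and for miR-125b-5p miR-222 (0.94), miR-541 (0.88) and miR-409-3p (0.85). miR-129-3p stands in the lists of both chromosome 17 members, and miR-222, detected on 4 of the 12 arrays, in those of both miR-125 members. These correlations are over arrays of 6 groups and describe likeness only.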

How the data were processed

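The authors deposited scanner tables with spot intensity on a linear scale, which the submitters' processing notes credit to Feature Extraction version 10.7.1.1, and a table of log2 values. That table equals the software's total gene signal after log2, unscaled, within 1.18e-06 and is empty where a miRNA was undetected. RNA input was 100 ng, labelled with Cy3, per the labels. From the background-subtracted intensity, spots marked as outliers were dropped, spots of a probe averaged and probes of a miRNA summed. Scaling used the 75th percentile of the 93 miRNAs that all 12 arrays detected, and values were floored at 0.0191 before log2. limma 3.58.1 in R 4.3.3 fitted 6 group means to 176 mouse miRNAs, those with detection on both arrays in 1 group or more, in 11 comparisons. Benjamini-Hochberg adjusted p below 0.05 was called. The fit was also run on simulated data with the same spread for every miRNA, independent errors and no floor. That run does not bear on floored values or on deviations that arrays of a slide share.

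Members and lists were chosen with earlier results of these data known. Named miRNAs were all members, linked miRNAs and, for miR-99a the 5 and for each other member the 3, non-members of highest Pearson r. Arrays with the same replicate number deviated from their groups with correlations of 0.478 to 0.906 within a slide and of -0.382 to -0.0533 between slides. Replicate numbers therefore pair arrays within a slide, as scan runs. The number of arrays limits the precision.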

Additional observations from a re-analysis of the deposited data

Results flagged for a closer look

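The response of miR-99a to tunicamycin differed between genotypes by the test of that difference in the fit. KO minus WT was 1.811 at 12 h and 1.935 at 24 h on the log2 scale. In KO cells the signal was 0.27 and 0.39 above untreated, and in WT cells it was lower by -1.54 at both times, set by the floor. The choice of miR-99a used this contrast, so the test is no independent evidence. Epithelial markers were detected on the treated KO arrays and on no other array, and their part in this difference was not tested.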

How the results depend on the processing

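The 2 arrays a group limit every error here, miR-99a lies near background, and a floor sets its value in treated WT cells. The number of members called changed as follows. Quantile normalization gave 2 between genotypes at 12 h against 1 as reported, and 0 for both response differences and for KO at 24 h, each 1 as reported. Scaling over all mouse miRNAs gave 0 between genotypes in untreated cells, for tunicamycin in WT at 12 h and 24 h (2 and 3 as reported) and in KO at 24 h, and for both response differences. The total gene signal gave 1 in WT at each time and 0 in KO at 24 h and for both response differences. The deposited values and normexp gave 0 in all 8 comparisons with a call. With only miRNAs detected on all 12 arrays, which leaves out miR-99a, 1 was called in WT at 12 h and 0 in the other 6 that changed. A halved floor gave 0 in KO at 24 h. The replicate block gave 2 between genotypes in each condition, 2 in KO and 5 in WT at 24 h, and the run block gave the same but 0 in KO at 24 h. Among let-7 miRNAs the replicate block added let-7c in KO at 24 h, let-7i in KO at 12 h and miR-98 in the 24 h response difference, for 6 and 8 that rose in KO against 5 and 7 as reported. For the members and the linked miRNAs tested it changed no call beyond these and the miR-125 calls given in the report. Leaving out an array gave 1 to 2 between genotypes at 24 h, 0 to 1 in KO at 24 h, 1 to 2 in WT at 12 h and 1 to 2 for the 24 h response difference.

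Ratios of miR-99a between genotypes, untreated, 12 h and 24 h, were for miR-99b 2.103, 2.54 and 3.81 on deposited values, 2.103, 2.84 and 4.21 on total gene signal, and 0.58, 0.81 and 0.62 with normexp. For miR-100 they were 1.99, 2.62 and 2.54, then 1.99, 2.92 and 2.95, then 0.50, 0.68 and 0.56. For miR-125b-5p they were 2.33, 3.47 and 3.13 on deposited values, 0.90, 1.72 and 1.28 with normexp, and 2.33 untreated and 3.54 at 24 h on total gene signal. A doubled floor gave 2.36 and 2.17 at 12 h and 24 h for miR-99b, 2.09 and 2.15 for miR-100 and 2.93 and 2.83 for miR-125b-5p. A halved floor gave 3.75 for miR-99b at 24 h, 3.30 and 3.74 for miR-100 and 4.41 for miR-125b-5p at 24 h. None of the ratios changed sign under any setting. The floor settings act through the floor itself; the cause of the other shifts was not tested.

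Reversed were miR-99a in KO at 24 h (-0.12 quantile, -0.029 total gene signal, -0.81 deposited), miR-99b in WT at 24 h (0.75 total gene signal, 0.54 deposited) and miR-100 in WT at 24 h (0.88 and 0.67). On deposited values let-7a in KO (-0.34 and -0.42), let-7e (-0.35), miR-98 (-0.24) and miR-10a (-0.044) in KO at 24 h reversed, and miR-98 between genotypes at 24 h (-1.67, and -1.33 on total gene signal). The cause was not tested.

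Of the 10 linked miRNAs tested, the other settings called 0 to 1 between genotypes untreated, 0 to 3 at 12 h and 0 to 2 at 24 h, 0 to 7 and 0 to 9 in KO, 0 to 3 and 0 to 5 in WT, and 0 to 3 and 0 to 2 for the response differences. Leaving out an array gave 0 to 1, 0 to 2, 0 to 1, 3 to 7, 3 to 8, 1 to 3, 1 to 4, 1 to 3 and 0 to 2 in the same order. Over all 176 miRNAs the settings called 0 to 37 between genotypes untreated (20 as reported), 5 to 91 at 12 h (67), 4 to 84 at 24 h (61), 3 to 58 and 3 to 73 in KO (45 and 54), 3 to 89 and 2 to 96 in WT (67 and 76), and 4 to 61 and 2 to 60 for the response differences (43 and 36). Scaling over all mouse miRNAs set the median difference between genotypes at 12 h to -0.08, against 0.23.

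Normexp was planned on spot means, which are not a column of the files. It was run on medians, after seeing the data, with parameters fitted without the lowest 1% of spots, because a fit on all spots put the background mean of 1 array at -488 and a fit without spots of the brightest local background also failed on that array. The settings for linked miRNAs were also added after seeing the data.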
